A study of Mus musculus with 12 samples.

Results

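The genes described here are 8 targets of the sterol-sensing transcription factor SREBP2: Hmgcs1, Idi1, Fdps, Fdft1, Sqle, Cyp51, Dhcr7 and Insig1. They were chosen by symbol from the sterol synthesis and uptake pathway, and all 8 were found among the 19680 genes of the count table and among the 11635 genes tested. Of the 8, 7 encode enzymes of cholesterol synthesis and Insig1 encodes the protein that holds the pathway back when sterol is plentiful. None of them is itself an uptake gene, so uptake genes are given from a separate list.

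RNA came from CJ9 cells, a mouse embryonic stem cell line, that had spent 5 days in conditions directing them to endoderm or mesoderm. In each lineage, 3 libraries were wild type and 3 carried the label arid4b∆, which is written here as knockout. ARID4B is a chromatin protein found in SIN3-HDAC complexes, and the comparison asks how its loss bears on lineage commitment. The 4 groups share the cell line and the 5 days, and neither the form of the deletion nor whether the knockout line is 1 clone is given in the sources used here.

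Cells make cholesterol from acetyl-CoA by way of mevalonate, farnesyl diphosphate, squalene and lanosterol. When membrane sterol falls, SCAP carries SREBP2 from the endoplasmic reticulum to the Golgi, where it is cut, and the freed part enters the nucleus and switches on genes of sterol synthesis and uptake. INSIG proteins keep SCAP and SREBP2 in the endoplasmic reticulum when sterol is high. SREBP2 binds short sterol regulatory elements near transcription starts, usually beside sites for NF-Y or Sp1.

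Promoter sequences were taken from RefSeq (GRCm38.p6), as windows of 300 bases from 250 before to 50 after an annotated start, on the strand of the gene. Entries matched 5 of the 8 genes, in 7 windows, and Sqle, Fdft1 and Fdps had none. Searched on both strands were the sterol regulatory element core TCACNCCA, the NF-Y box CCAAT, the Sp1 box GGGCGG and the E-box CACGTG, and no 2 matches overlapped. The windows of Hmgcs1 (chr13:119690101-119690400, plus strand), Idi1 (chr13:8885356-8885655, plus strand), Cyp51 (chr5:4104648-4104947, minus strand) and Insig1 (chr5:28071162-28071461, plus strand) are shown. Hmgcs1 is shown for its sterol element, Idi1 and Cyp51 because they differed between the wild type lineages, and Insig1 for its E-box. Capitals mark the matches, read on either strand.
Hmgcs1: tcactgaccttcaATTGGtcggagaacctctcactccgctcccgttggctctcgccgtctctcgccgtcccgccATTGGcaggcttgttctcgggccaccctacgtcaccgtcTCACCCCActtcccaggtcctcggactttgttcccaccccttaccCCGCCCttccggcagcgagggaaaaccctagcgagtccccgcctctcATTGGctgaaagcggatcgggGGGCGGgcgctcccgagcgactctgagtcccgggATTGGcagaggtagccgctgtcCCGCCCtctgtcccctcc
Idi1: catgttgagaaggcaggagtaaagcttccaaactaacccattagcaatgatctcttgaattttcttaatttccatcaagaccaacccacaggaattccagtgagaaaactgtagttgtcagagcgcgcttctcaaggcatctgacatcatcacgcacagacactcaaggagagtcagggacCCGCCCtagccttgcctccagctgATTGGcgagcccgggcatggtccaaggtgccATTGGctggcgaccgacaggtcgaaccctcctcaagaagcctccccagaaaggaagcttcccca
Cyp51: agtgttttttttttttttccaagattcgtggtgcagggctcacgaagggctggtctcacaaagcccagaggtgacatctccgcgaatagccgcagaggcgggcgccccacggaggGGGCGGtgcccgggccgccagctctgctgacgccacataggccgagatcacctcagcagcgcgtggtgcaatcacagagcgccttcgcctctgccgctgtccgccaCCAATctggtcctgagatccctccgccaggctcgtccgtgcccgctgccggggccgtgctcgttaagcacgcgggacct
Insig1: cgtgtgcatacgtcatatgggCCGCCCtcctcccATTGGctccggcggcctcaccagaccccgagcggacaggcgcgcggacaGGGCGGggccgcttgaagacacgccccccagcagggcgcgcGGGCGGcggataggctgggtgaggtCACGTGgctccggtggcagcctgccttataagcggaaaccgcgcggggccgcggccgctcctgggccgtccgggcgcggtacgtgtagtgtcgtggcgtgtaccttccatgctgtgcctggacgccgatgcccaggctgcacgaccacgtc

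With the annotated start as position 0, the sterol element core of Hmgcs1 lay at -137 to -130, and Hmgcs1 was the 1 gene of the 5 with a match (1 of the 7 windows). Of all 32851 RefSeq promoters of this length, 4.36% held that core. The NF-Y box was found in 5 of the 7 windows, against 37.4% of all promoters, and in at least 1 window of each of the 5 genes. It had 4 matches in Hmgcs1, 2 in Idi1, 2 in 1 of the 3 Dhcr7 windows and 1 each in Cyp51 and Insig1. The Sp1 box was found in 6 of the 7 windows, against 35.7% of promoters, and likewise in at least 1 window of each gene. The E-box lay at -101 to -96 in Insig1 and in 1 of the 3 Dhcr7 windows, and 7.15% of all promoters held it. A match is a run of letters and not a measured binding site. Only the letters given were searched, so a window without a match is not shown to lack a sterol element.

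**Figure D1:**
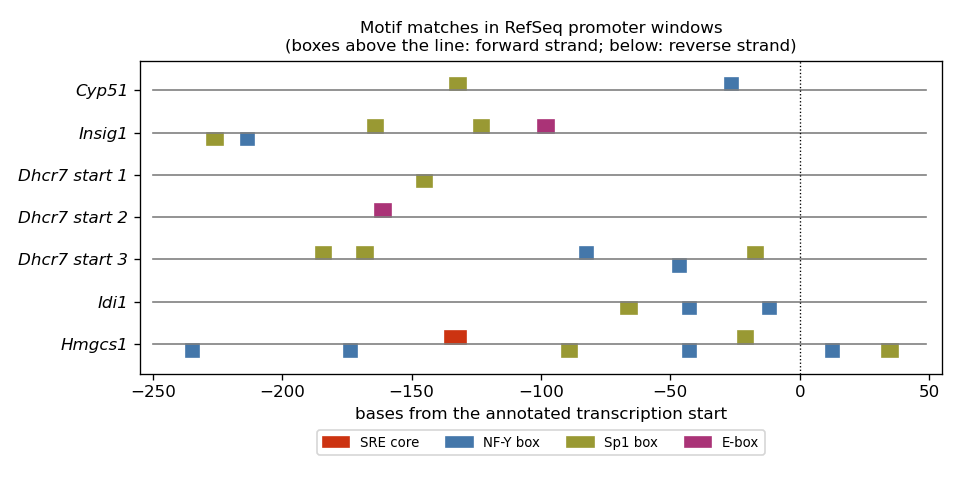
Motif matches in the 7 promoter windows of the 5 genes with a RefSeq entry, by distance in bases from the annotated transcription start (dotted line). Boxes above a line are matches on the forward strand and boxes below on the reverse strand. The sterol element core (red) appears once, in Hmgcs1, and each of the 5 genes has an NF-Y box and an Sp1 box in at least 1 window.

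The libraries held 10352411 to 35664057 counts. The precursor of ribosomal RNA, Rn45s, made up 79.6% to 82.4% of them and was left out, which leaves 1949299 to 6678893 counts per library and 55 to 1418 counts for any of the 8 genes. Levels are given in CPM, each count relative to the remaining total of its library, with totals adjusted by TMM, edgeR's default scaling. Arid4b itself was not lower in the libraries labelled knockout (log2 fold change 0.17 ± 0.11 SE in endoderm and 0.10 ± 0.12 in mesoderm, adjusted p = 0.365 and 0.601), so whole-gene counts do not check the label. The summed level of 9 endoderm markers was 278 to 384 CPM in wild type endoderm and 23.9 to 28.5 CPM in knockout endoderm. For 10 mesoderm markers it was 187 to 447 CPM in wild type mesoderm and 7.999 to 15.2 CPM in knockout mesoderm. The genotypes therefore also differ in which lineage markers their cells express, and in bulk libraries fewer cells of a type and less RNA per cell cannot be told apart.

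A gene was called when edgeR's quasi-likelihood test gave a Benjamini-Hochberg adjusted p under 0.05 over all tested genes. In endoderm, 1 of the 8 genes was called higher in knockout than in wild type, against 5.78% of all genes tested, and 0 were called lower, against 6.92%. In mesoderm, 1 was again called higher, against 8.93% of all genes, and 0 lower, against 10.2%. In both lineages the called gene was Sqle, squalene epoxidase, which makes the first oxygenation of the pathway and is one of its slow steps. At an unadjusted p under 0.05, 2 genes were higher in endoderm, 1 was higher in mesoderm and 0 were lower in either, and DESeq2 and limma-voom also called 0 lower. The share of all genes at an unadjusted p under 0.05 is not given, so unadjusted counts here and below have no background. The median log2 difference of the 8 genes was 0.13 in endoderm and 0.09 in mesoderm, and over all tested genes it was -0.0037 and 0.0071.

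Sqle (chr15:59315092-59331193, plus strand) was at 57.3, 60.5 and 58.8 CPM in wild type endoderm libraries 1 to 3 and at 79.6, 94.6 and 98.1 CPM in knockout endoderm. In wild type mesoderm it was at 50.1, 39.2 and 49.3 CPM, and in knockout mesoderm at 64.0, 79.4 and 76.5 CPM. Each knockout library was above each wild type library of its lineage. Sqle rose 1.55-fold in knockout endoderm (95% interval 1.33 to 1.80, log2 0.63 ± 0.11 SE, n = 3 and 3, edgeR adjusted p = 0.000305). In mesoderm it also rose 1.55-fold (1.31 to 1.83, log2 0.63 ± 0.12 SE, n = 3 and 3, edgeR adjusted p = 0.00045). The effect in endoderm minus that in mesoderm was -0.0056 on the log2 scale, with a 95% interval from -0.33 to 0.32. A test against a 1.5-fold change called Sqle in neither lineage, and none of the other alternatives ended either call.

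**Figure D2:**
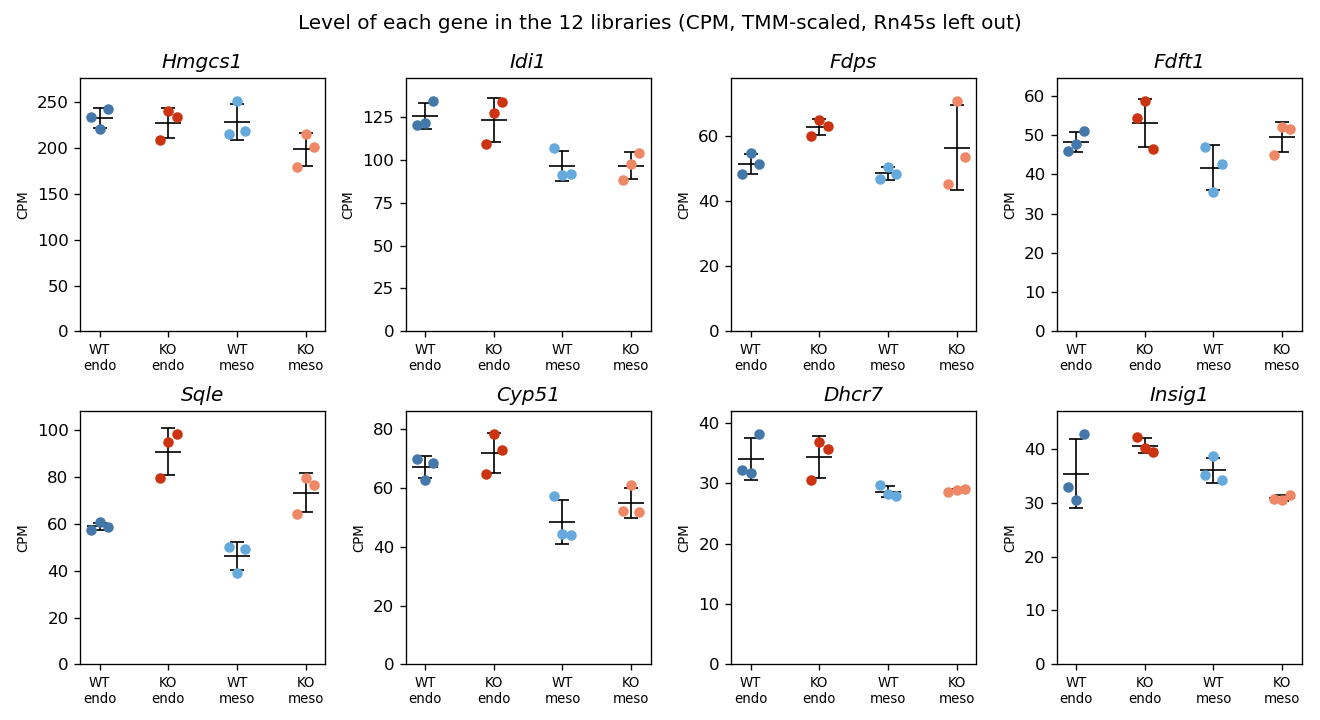
Level of each of the 8 genes in the 12 libraries, in CPM, with 1 point per library, the group mean as a bar and the SD as whiskers (n = 3). WT is wild type, KO is labelled knockout, and each panel has its own axis from 0. The knockout points of Sqle lie above the wild type points in both lineages, and the endoderm points of Idi1 and Cyp51 lie above the mesoderm points of the same genotype.

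Of the 8 genes, those for the enzymes that lead up to squalene were not called in either lineage. Hmgcs1 makes HMG-CoA, an intermediate on the way to mevalonate (chr13:119690351-119708260). It was at 234, 221 and 243 CPM in wild type endoderm and at 209, 240 and 234 CPM in knockout endoderm, and these groups overlapped. In wild type mesoderm Hmgcs1 was at 215, 251 and 218 CPM and in knockout mesoderm at 180, 215.1 and 201 CPM. The highest knockout mesoderm library was just under the lowest wild type one, at 215.1 against 215.2 CPM, and the log2 difference of -0.19 ± 0.10 SE was not called (edgeR adjusted p = 0.184).

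Idi1, which interconverts the isoprene units isopentenyl and dimethylallyl diphosphate (chr13:8885606-8892396), was nearly level between genotypes. It was at 120, 122 and 134 CPM in wild type endoderm, 109, 127 and 133 CPM in knockout endoderm, 106, 91.2 and 91.6 CPM in wild type mesoderm and 88.1, 97.5 and 104 CPM in knockout mesoderm. The genotype groups overlapped in both lineages, with log2 differences of -0.02 (95% interval -0.22 to 0.19) and -0.0016 (-0.22 to 0.22).

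Fdps joins the isoprene units into farnesyl diphosphate, the branch point to sterols and to protein prenylation (chr3:89093588-89101967). It was at 48.3, 54.5 and 51.1 CPM in wild type endoderm and at 59.9, 64.8 and 62.9 CPM in knockout endoderm. These groups did not overlap, but the log2 difference of 0.28 ± 0.12 SE was not called (edgeR adjusted p = 0.133). A fit of the endoderm libraries alone gave a log2 difference of 0.29 and an adjusted p of 0.0365. In mesoderm Fdps was at 46.6, 50.5 and 48.1 CPM in wild type and at 45.0, 70.5 and 53.3 CPM in knockout. The knockout mesoderm libraries lay on both sides of the wild type ones (log2 0.22 ± 0.13 SE, edgeR adjusted p = 0.255).

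Fdft1, squalene synthase, commits farnesyl diphosphate to sterols (chr14:63145150-63181687). Its groups overlapped in both lineages, at 46.0 to 51.1 CPM in wild type and 46.5 to 58.6 CPM in knockout endoderm, and at 35.5 to 46.9 against 45.0 to 52.0 CPM in mesoderm. The log2 differences were 0.14 and 0.22, with 95% intervals from -0.09 to 0.37 and from -0.03 to 0.47.

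Neither of the enzymes past lanosterol among the 8, Cyp51 and Dhcr7, was called between genotypes. Cyp51, lanosterol 14-alpha-demethylase (chr5:4080674-4104697), was at 69.8, 62.8 and 68.7 CPM in wild type endoderm, 64.8, 78.2 and 73.0 CPM in knockout endoderm, 57.1, 44.3 and 43.9 CPM in wild type mesoderm and 52.3, 60.9 and 51.7 CPM in knockout mesoderm. The genotype groups overlapped in both lineages and the log2 differences of 0.12 and 0.17 were not called (edgeR adjusted p = 0.566 and 0.351). Dhcr7, the reductase of the last step to cholesterol (chr7:143823167-143848410), ranged from 30.5 to 38.1 CPM over the endoderm libraries and from 27.9 to 29.7 CPM over the mesoderm ones. Its genotype differences were 0.03 and 0.01 on the log2 scale, and neither was called.

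Insig1 is the 1 regulator among the 8 (chr5:28071412-28078662). It was at 32.9, 30.5 and 42.7 CPM in wild type endoderm and at 42.1, 40.1 and 39.4 CPM in knockout endoderm. In wild type mesoderm it was at 35.2, 38.6 and 34.2 CPM and in knockout mesoderm at 30.8, 30.5 and 31.5 CPM. The endoderm groups overlapped through wild type library 3, and in mesoderm all knockout libraries were below all wild type ones. The log2 differences of 0.21 ± 0.12 SE and -0.20 ± 0.13 SE had opposite signs and were not called (edgeR adjusted p = 0.278 and 0.298). The test of the difference between the lineages gave 0.41 ± 0.17 SE (edgeR unadjusted p = 0.0264, adjusted p = 0.364).

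The knockout effect was not called as different between the lineages for any of the 8 genes in edgeR's test of the interaction (0 of 8, against 1.4% of all genes tested in either direction). At an unadjusted p under 0.05 that test had 1 gene, Insig1, and DESeq2 and limma-voom also called 0 of the 8. For the 7 genes other than Sqle, the 95% intervals of the genotype fold reached from 0.854 to 1.44 in endoderm and from 0.724 to 1.40 in mesoderm. Those intervals show the sizes of change that these libraries leave possible, and a missed threshold does not show that a gene was unchanged.

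**Figure D3:**
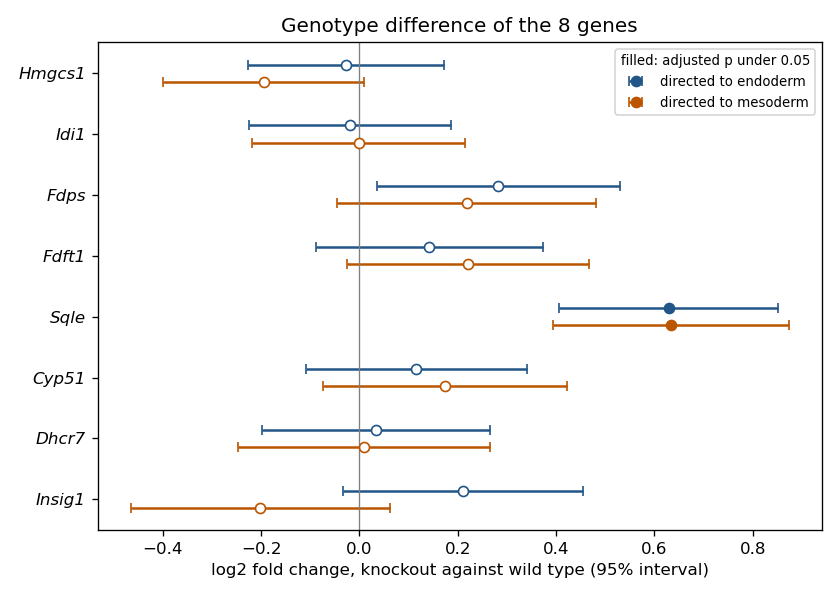
Log2 fold change of the 8 genes, knockout against wild type, with 95% intervals from the edgeR fit (n = 3 and 3), in endoderm (blue) and mesoderm (orange). Filled points had an adjusted p under 0.05. Sqle, at 0.63 in both lineages, has the only filled points.

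Sqle made up a larger part of the counts of the 8 genes in the knockout libraries. Sqle took 8.94%, 9.61% and 8.55% of the counts of the 8 genes in wild type endoderm and 12.3%, 12.8% and 13.6% in knockout endoderm. In mesoderm it took 8.54%, 6.77% and 8.87% in wild type and 12.002%, 12.5% and 12.8% in knockout. The group means were 9.03% ± 0.54 and 12.9% ± 0.66 in endoderm and 8.06% ± 1.13 and 12.4% ± 0.40 in mesoderm (SD, n = 3 each), and the genotypes did not overlap in either lineage. The exact 95% binomial interval was 10.9% to 13.7% for the lowest knockout endoderm library and 8.67% to 10.6% for the highest wild type one. For mesoderm the corresponding intervals were 10.6% to 13.5% and 7.92% to 9.89%. These intervals cover counting error only, and this share does not depend on the scaling of library sizes.

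The share of Hmgcs1, the most abundant of the 8, was 35.0% to 36.5% in wild type endoderm against 32.2% to 32.4% in knockout endoderm, and 36.6% to 43.4% against 33.6% to 33.9% in mesoderm. The 8 shares sum to the whole in each library, so a higher share of Sqle means a lower sum of the others. That need not lower each of them. The mean shares of Hmgcs1, Idi1 and Dhcr7 were lower in knockout in both lineages, and those of Fdft1 and Fdps were higher. For Fdps they were 7.88% in wild type and 8.89% in knockout endoderm, and 8.44% and 9.48% in mesoderm. Insig1 and Cyp51 differed in direction between the lineages. The part of Sqle in the lower shares was not tested. Idi1 took 18.8% to 19.5% in wild type endoderm and 16.8% to 18.5% in knockout endoderm. Its shares in mesoderm overlapped, at 15.8% to 18.1% against 15.4% to 17.4%.

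**Figure D4:**
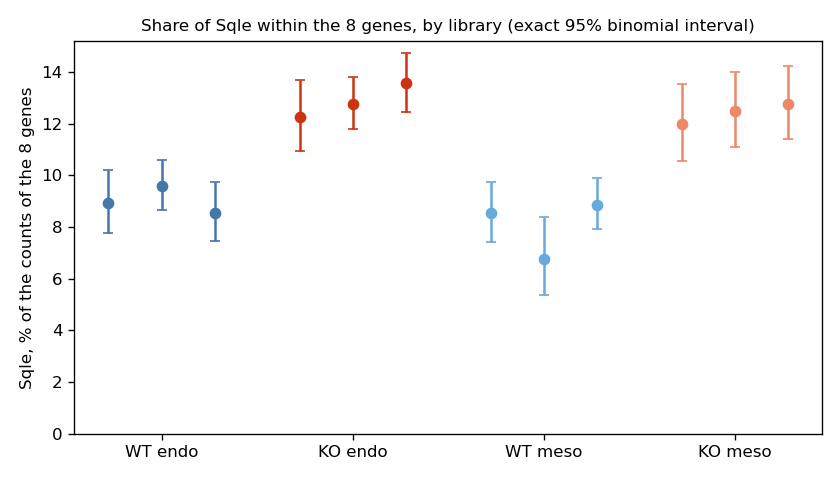
Share of Sqle in the summed counts of the 8 genes, in percent, for each of the 12 libraries with its exact 95% binomial interval, in the order of the replicate numbers within a group. The wild type libraries lie between 6.77% and 9.61% and the knockout libraries between 12.002% and 13.6%.

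Per kilobase of exon, the genes fell into the same broad order in every group, with Hmgcs1 first, Idi1 next and Dhcr7 last. In wild type endoderm the levels per kilobase were 50.6 ± 2.44 CPM for Hmgcs1, 35.8 ± 2.13 for Idi1, 15.2 ± 0.86 for Cyp51 and 5.85 ± 0.61 for Dhcr7 (SD, n = 3). Between Cyp51 and Dhcr7 came Fdps at 12.2 ± 0.74 CPM per kilobase, Insig1 at 11.4 ± 2.08, Fdft1 at 11.4 ± 0.62 and Sqle at 10.6 ± 0.29. Neighbours among these overlapped in their libraries, while Hmgcs1, Idi1, Cyp51 and Dhcr7 did not overlap with the gene next to them. In knockout endoderm Sqle reached 16.4 ± 1.77 CPM per kilobase, beside Cyp51 at 16.3 ± 1.53 and Fdps at 14.9 ± 0.60, and these overlapped. In mesoderm Sqle was at 8.33 ± 1.10 CPM per kilobase in wild type, below every gene but Dhcr7, and at 13.2 ± 1.47 in knockout, beside Fdps at 13.4 ± 3.08.

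Cyp51 and Idi1 were higher in endoderm than in mesoderm. In wild type cells 2 of the 8 were called higher in endoderm than in mesoderm, against 4.41% of all genes tested, and 0 were called lower, against 5.43% (also 0 at an unadjusted p under 0.05 and by DESeq2 and limma-voom). The median log2 difference of the 8 was 0.21, and that of all genes tested was 0.0081. The called genes were Cyp51 (1.37-fold, 95% interval 1.16 to 1.62, log2 0.46 ± 0.12 SE, edgeR adjusted p = 0.0112) and Idi1 (1.30-fold, log2 0.37 ± 0.10 SE with a 95% interval from 0.16 to 0.59, edgeR adjusted p = 0.0195). For both, each wild type endoderm library was above each wild type mesoderm library. The Cyp51 call was lost without wild type mesoderm library 3 (log2 0.36, edgeR adjusted p = 0.116). The Idi1 call was lost without wild type endoderm library 3 (0.32, adjusted p = 0.105), wild type mesoderm library 2 (0.34, adjusted p = 0.0775) or wild type mesoderm library 3 (0.32, adjusted p = 0.110).

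Sqle and Dhcr7 also had wild type groups that did not overlap between lineages, with log2 differences of 0.32 ± 0.12 SE and 0.24 ± 0.12 SE, and neither was called (edgeR adjusted p = 0.0905 and 0.241). Hmgcs1 differed by 0.03 and Insig1 by -0.02. In the knockout libraries 0 of the 8 were called by edgeR, DESeq2 or limma-voom, where 1.86% of all genes were called in either direction. All 8 had a positive difference, from 0.11 for Fdft1 to 0.40 for Cyp51, with a median of 0.29 against -0.0072 over all genes, and 5 had an unadjusted p under 0.05. The shares of all genes with a positive difference or such a p are not given here, so these counts have no background. Idi1 and Cyp51 were called between the knockout lineages in 1 of the leave-one-out fits, that without knockout endoderm library 1 (edgeR adjusted p = 0.0321 and 0.0446). Both genes were also called with the replicate number as a block (edgeR adjusted p = 0.0405 for each). The lineage and genotype comparisons use the same groups, so their differences are not independent of each other.

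Some of these genes share ground with others in the GENCODE M21 annotation, and whether reads were counted by strand is not given in the sources used here. Exons of Hmgcs1, Idi1, Fdft1 and Cyp51 overlap a gene on the opposite strand by 557, 323, 774 and 166 bases. Fdps shares 1124 exon bases with the same-strand gene model Gm43738. Sqle, Insig1 and Dhcr7 overlap no other gene's exons. Akap9, the partner of Cyp51, differed by 0.32 on the log2 scale between the wild type lineages (edgeR adjusted p = 0.0556). Ctsb, the partner of Fdft1, was 0.68 and 0.33 higher in knockout on the log2 scale and was not called (edgeR adjusted p = 0.0675 and 0.387).

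Among 13 other enzymes of sterol synthesis, 1 was called higher and 1 lower in knockout endoderm, where 5.78% and 6.92% of all genes tested were. In mesoderm 1 was called higher and 2 lower, where 8.93% and 10.2% of all genes were, so that these counts are near the background in both lineages. The list medians were 0.04 and 0.03 on the log2 scale, and those of all genes tested -0.0037 and 0.0071. Mvd, which decarboxylates mevalonate diphosphate, rose by 0.64 ± 0.16 SE in endoderm and 0.85 ± 0.18 SE in mesoderm (edgeR adjusted p = 0.0103 and 0.00165). It was at 13.1, 14.7 and 14.1 CPM in wild type and 24.7, 22.5 and 18.8 CPM in knockout endoderm. Ebp, a sterol isomerase late in the pathway, fell by 1.60 and 1.29 on the log2 scale (edgeR adjusted p = 0.0004 and 0.00151), from 8.73, 10.6 and 12.7 CPM to 4.07, 3.22 and 3.44 CPM in endoderm. Neither pair of endoderm groups overlapped.

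Hsd17b7, a sterol keto-reductase, fell by 0.94 ± 0.25 SE in mesoderm (edgeR adjusted p = 0.00942). Its wild type mesoderm libraries were at 12.5, 25.2 and 31.1 CPM and its knockout ones at 10.3, 10.8 and 14.9 CPM, with overlap through wild type library 1. Without wild type mesoderm library 3 the Hsd17b7 difference was -0.52 and was not called (edgeR adjusted p = 0.197).

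Among 10 genes of sterol uptake and intracellular transport, 2 were called lower in knockout endoderm, against 6.92% of all genes. In mesoderm 1 was called higher and 1 lower, near the 8.93% and 10.2% of all genes, and the list medians were -0.17 and -0.08. Vldlr, the VLDL receptor, fell by 2.23 ± 0.27 SE in knockout endoderm (edgeR adjusted p = 4.9e-06), from 17.5, 20.9 and 20.3 CPM to 4.36, 5.08 and 3.03 CPM. In mesoderm it fell by 1.11 ± 0.34 SE (edgeR adjusted p = 0.0234), a call that rested on wild type library 3, without which the difference was -0.40 (edgeR adjusted p = 0.523). Leaving out knockout mesoderm library 2 or 3 also ended that Vldlr call (edgeR adjusted p = 0.0746 and 0.0838), as did limma-voom (0.0585). A fit of the 2 mesoderm groups alone ended it too (edgeR adjusted p = 0.0605). Npc1, which exports cholesterol from lysosomes, fell by 0.39 ± 0.11 SE in endoderm (edgeR adjusted p = 0.0277). That call was lost without wild type endoderm library 1 or 2 or knockout endoderm library 1 or 3 (edgeR adjusted p from 0.0705 to 0.127) and with DESeq2 (0.0855). Scarb1, a receptor for HDL, rose by 0.50 ± 0.17 SE in mesoderm (edgeR adjusted p = 0.0404), and this call was lost in 5 of the 6 fits that left out 1 mesoderm library, all but that without wild type library 1 (edgeR adjusted p from 0.0528 to 0.18), and with DESeq2 (0.163). The Scarb1 call was also lost with the 2 mesoderm groups alone (edgeR adjusted p = 0.0669) and without the filter on low counts (0.0655).

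The machinery that senses sterol and releases SREBP2 was not called in endoderm (0 of 13 genes by edgeR, DESeq2 or limma-voom, and 2 lower at an unadjusted p under 0.05). In mesoderm 1 of the 13 was called lower (4 lower and 0 higher at an unadjusted p under 0.05), and the list medians were -0.05 and -0.13. With 5.78% of all genes called higher and 6.92% lower in endoderm, and 10.2% lower in mesoderm, counts of 0 and 1 in a list of 13 are near the background. Srebf2, the gene of SREBP2 itself, was at 107, 112 and 114 CPM in wild type and 104, 125 and 113 CPM in knockout endoderm, and at 111, 90.7 and 97.1 CPM against 89.5, 99.7 and 94.6 CPM in mesoderm. Its groups overlapped in both lineages, with differences of 0.04 ± 0.09 SE and -0.08 ± 0.10 SE. Srebf1, the gene of SREBP1, differed by 0.22 and 0.23, Scap by 0.21 and 0.01 and Insig2 by -0.14 and -0.07 on the log2 scale, and none of these was called (edgeR adjusted p from 0.275 to 0.988). Erlin2, an endoplasmic reticulum protein that takes part in the degradation of other membrane proteins, fell by 0.44 ± 0.13 SE in mesoderm (edgeR adjusted p = 0.0188). That call was lost without wild type mesoderm library 3 or knockout mesoderm library 1 or 3 (edgeR adjusted p = 0.0765, 0.12 and 0.0539) and with DESeq2 (0.0647).

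Of 14 genes of fatty acid synthesis, which SREBP1 controls in the main, 2 were called higher in knockout endoderm, against 5.78% of all genes. In mesoderm 4 were called higher and 1 lower, against 8.93% and 10.2%, and the list medians were 0.14 and 0.10. Scd1, a fatty acid desaturase, was at 48.9, 63.3 and 65.0 CPM in wild type and 79.9, 111 and 89.8 CPM in knockout endoderm, and these groups did not overlap. It rose by 0.67 ± 0.12 SE in endoderm and by 0.51 ± 0.13 SE in mesoderm (edgeR adjusted p = 0.000693 and 0.00752). Scd2, a desaturase of the same family, fell by 0.54 ± 0.10 SE in mesoderm (edgeR adjusted p = 0.000732) and was not called in endoderm (-0.17 ± 0.10 SE). Fads2, the delta-6 desaturase, rose by 0.58 ± 0.16 SE in endoderm (edgeR adjusted p = 0.0195), a call lost without wild type endoderm library 1 or 3 or knockout endoderm library 3 (edgeR adjusted p from 0.0631 to 0.11). In mesoderm Acly, Acaca and Fasn, the enzymes that carry citrate to palmitate, rose by 0.33, 0.36 and 0.31 on the log2 scale (edgeR adjusted p = 0.0129, 0.0232 and 0.0403). Each of these calls was lost without wild type mesoderm library 3 or knockout mesoderm library 2 (edgeR adjusted p from 0.0607 to 0.197), and those of Acaca and Fasn also without knockout mesoderm library 3 (0.0501 and 0.0837) and that of Fasn without wild type mesoderm library 2 (0.113). A fit of the 2 mesoderm groups alone lost the Fasn call as well (edgeR adjusted p = 0.0583).

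**Figure D5:**
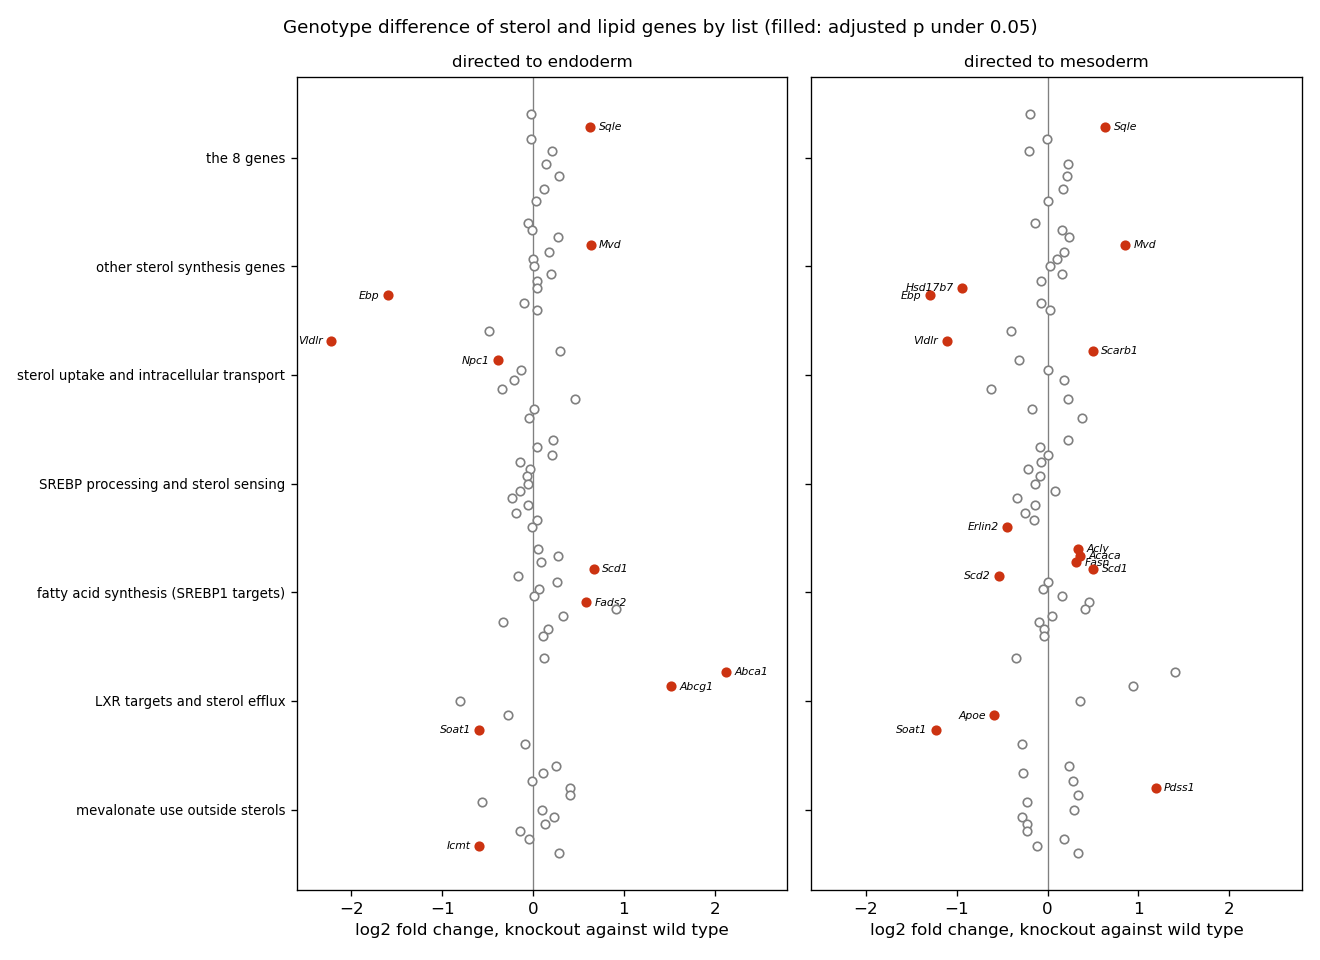
Log2 fold change of the 8 genes and of further lists of sterol and lipid genes, knockout against wild type, in endoderm (left) and mesoderm (right), with 1 point per tested gene. Filled and named points had an edgeR adjusted p under 0.05. Sqle is the one named point among the 8 genes, and further lists have named points on both sides of 0, such as Mvd and Ebp among other sterol synthesis genes. Some open points lie far from 0, as that of Abca1 at 1.40 in mesoderm.

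Cholesterol is also stored as ester and sent out of the cell, and 7 of 10 listed genes of efflux and LXR response were tested. In endoderm 2 were called higher and 1 lower, against 5.78% and 6.92% of all genes. In mesoderm 0 were called higher by edgeR (2 at an unadjusted p under 0.05, and limma-voom called Abca1 with an adjusted p of 0.0491) and 2 lower, against 8.93% and 10.2%, and the list medians were -0.08 and -0.28. Soat1, which esterifies cholesterol in the endoplasmic reticulum, was at 98.3, 98.6 and 103 CPM in wild type and 71.8, 64.0 and 63.5 CPM in knockout endoderm. In mesoderm it was at 163, 177 and 172 CPM in wild type and 70.7, 69.8 and 77.3 CPM in knockout, so that the knockout libraries of both lineages lay between 63.5 and 77.3 CPM. Soat1 fell by 0.59 ± 0.09 SE in endoderm and by 1.23 ± 0.09 SE in mesoderm (edgeR adjusted p = 7.7e-05 and 5.2e-09).

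The exporter Abcg1 rose by 1.52 ± 0.34 SE in knockout endoderm (edgeR adjusted p = 0.00384) from 3.49, 2.74 and 3.67 CPM to 11.9, 8.30 and 8.29 CPM. In mesoderm it differed by 0.94 ± 0.38 SE and was not called (edgeR adjusted p = 0.0935), but it was called without wild type library 1 (1.65, edgeR adjusted p = 0.00573) or knockout library 3 (1.18, edgeR adjusted p = 0.0499). Abcg1 was also called there with the replicate number as a block (edgeR adjusted p = 0.0324) and without the filter on low counts (0.0366). Abca1, the exporter to apolipoprotein A1, rose by 2.13 ± 0.62 SE in endoderm (edgeR adjusted p = 0.0271), where its wild type libraries held 22, 9 and 5 counts, and its groups overlapped. That call was lost without wild type endoderm library 2 or 3 or knockout endoderm library 1 or 2 (edgeR adjusted p from 0.069 to 0.175), with DESeq2 (0.124) and with limma-voom (0.0942). In mesoderm the Abca1 difference was 1.40 ± 0.49 SE (edgeR adjusted p = 0.0512). It was called without wild type mesoderm library 1 (2.25, edgeR adjusted p = 0.00468) or knockout mesoderm library 3 (1.62, edgeR adjusted p = 0.0414). It was also called with the replicate number as a block (edgeR adjusted p = 5.73e-05), without the filter on low counts (3.65e-10) and with the 2 mesoderm groups alone (0.0206). In both lineages, Abca1 in each knockout library was above that in the wild type library of the same number. In endoderm it was at 23.2, 12.9 and 3.64 CPM in knockout and 6.40, 1.54 and 1.41 CPM in wild type. Apoe, a lipid-carrying apolipoprotein, fell by 0.59 ± 0.18 SE in mesoderm (edgeR adjusted p = 0.0266), a call lost without wild type mesoderm library 1 or 2 or knockout mesoderm library 1 or 2 (edgeR adjusted p from 0.0519 to 0.103). In endoderm Apoe differed by -0.27 ± 0.18 SE, and it was called only when knockout endoderm library 1 was left out (-0.52, edgeR adjusted p = 0.0474).

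Mevalonate also feeds prenyl groups, ubiquinone and dolichol. Of 13 such genes 1 was called lower in knockout endoderm and 1 higher in mesoderm, near the 6.92% and 8.93% of all genes, with list medians of 0.11 and 0.18. Icmt, which methylates prenylated proteins, fell by 0.60 ± 0.14 SE in endoderm (edgeR adjusted p = 0.0056). Pdss1, a subunit of the enzyme that makes the ubiquinone tail, rose by 1.19 ± 0.28 SE in mesoderm (edgeR adjusted p = 0.00373). It was at 4.99, 4.64 and 3.03 CPM in wild type and 10.3, 9.54 and 7.73 CPM in knockout mesoderm, and its call was lost without wild type library 3 (0.91, edgeR adjusted p = 0.0537).

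Across the 12 libraries, each of the 8 genes was set against the mean log2 profile of the other 7. Pearson's r ran from 0.27 for Hmgcs1 and 0.39 for Insig1 to 0.87 for Cyp51, with 0.64 for Sqle. The genes outside the 8 whose levels were most like the mean profile of the 8 were Shroom3 (r = 0.93), Xpo7 (0.92), D8Ertd82e (0.92), Pphln1 (0.92), Lss (0.92), Rgl3 (0.91), Sbk1 (0.91) and Rragd (0.90), of 8814 candidates. Among the other sterol synthesis genes, Lss, lanosterol synthase, ranked 5 and Sc4mol, a sterol C4-methyl oxidase, ranked 14 (r = 0.88). The rest ranked from 369 (Mvk, r = 0.68) to 7863 (Ebp, r = -0.51), and Ebp, Lbr (-0.41) and Hsd17b7 (-0.39) had negative r. These correlations describe 12 points that share 4 groups, library depth and the same scaling, and they were not tested.

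Some markers of other cell types also differed by genotype. Of all genes tested, 5.78% were called higher and 6.92% lower in knockout endoderm, and 8.93% and 10.2% in knockout mesoderm. Of 12 fibroblast and feeder genes 8 were tested; 4 were called higher in knockout endoderm (Col1a1, Col1a2, Postn and Fbln2) and 1 in knockout mesoderm (Fbln2). Their summed level was 227 to 316 CPM in wild type and 320 to 740 CPM in knockout endoderm, and 454 to 910 against 356 to 774 CPM in mesoderm. Fn1 made up most of that sum in every group, so the sum is mainly the level of 1 gene. It was at 203 to 285 CPM in wild type and 240 to 470 CPM in knockout endoderm. In mesoderm Fn1 was at 411, 427 and 858 CPM in wild type and at 264 to 554 CPM in knockout. Its mesoderm difference was -0.58 on the log2 scale and was not called (edgeR adjusted p = 0.133), while the list median there was 0.84. Lum and S100a4 were at 0 counts in all wild type endoderm libraries. Of 9 pluripotency genes, 4 were called higher and 2 lower in knockout endoderm, and 3 higher and 1 lower in knockout mesoderm, with summed levels of 601 to 613 against 488 to 550.1 CPM and of 409 to 488 against 542 to 666 CPM. Sox2, Dppa5a and Utf1 were called higher and Nanog lower in both lineages, and in endoderm Zfp42 was also called higher and Tdgf1 lower. The endoderm sum fell although the list median was 0.92 on the log2 scale. Tdgf1 alone had a mean of 194 CPM in wild type and 39.3 CPM in knockout endoderm. Of 10 extraembryonic endoderm genes 4 were tested, of which Lrp2 was called higher in knockout in both lineages. Counts of 1 among 8 or 4 tested genes are near what the shares of all genes would give. The loci Mir6236 and Lars2, both rich in ribosomal RNA sequence, together took 49.7% to 59.0% of the counts used in wild type and 54.6% to 64.9% in knockout endoderm, and 56.4% to 61.9% against 58.3% to 69.5% in mesoderm. The part of these markers in the Sqle result was not tested, and Sqle was still called in both lineages when Mir6236 and Lars2 were left out.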

How the data were processed

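RNA libraries, 12 in 4 groups of 3 taken from the sample titles, were compared. The authors deposited whole-number read counts per gene. The submitters' processing notes name STAR, DESeq2 and mm10; for versions, roles, counting program and strand setting, nothing was given in the sources used here. Of 19680 genes listed, 26 with a date in place of a count were left out. RefSeq gene IDs supplied 346 of 347 missing symbols. Msmo1 is listed under its older symbol, Sc4mol. Rn45s entered neither library sizes nor tests.

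The tools were R 4.3.3 and edgeR 4.0.16: TMM scaling, filterByExpr with a minimum count of 10 (11635 genes kept), 1 fit of 4 group means to all 12 libraries, quasi-likelihood tests, and Benjamini-Hochberg adjustment across the genes kept, at 0.05. The biological coefficient of variation was 9.71%. The fit was also run on simulated counts with 200 genes changed by known folds, and the outcome is not given here. Those counts were drawn independently for each library, so that run does not bear on effects shared between libraries. Alternatives were DESeq2 1.42.0, limma-voom (limma 3.58.1), a test against 1.5-fold, RLE scaling, no low-count filter, the replicate block, only the groups compared, without Mir6236 and Lars2, with Rn45s, and leaving out each library. No label says that libraries of a group were separate cultures; p-values therefore reflect the spread among these libraries only, which may be technical. No 2 libraries held identical counts. Gene positions and promoters are RefSeq GRCm38.p6, and exon lengths are GENCODE M21.

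The members and lists were chosen with earlier results of these data known. Named are all 8 genes, Arid4b, up to 4 called genes per list by smallest adjusted p, Srebf2, Srebf1, Scap and Insig2 whatever their result, and the 8 most alike (mean of at least 5 CPM). Acaca, Fasn, Akap9, Ctsb, Sc4mol's rank and the called marker genes were added after their values were seen. Some genes of these pathways are not reported here.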

Additional observations from a re-analysis of the deposited data

Results flagged for a closer look

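The knockout effect on Soat1, the cholesterol esterifying enzyme, differed between the lineages by edgeR's test of the interaction. The effect in endoderm minus that in mesoderm was 0.64 ± 0.13 SE on the log2 scale (edgeR adjusted p = 0.00883), because the gene fell further in mesoderm. All 3 libraries of each knockout group were below all 3 wild type libraries of their lineage. The difference was still called in each fit that left out 1 library, and not in the test against a 1.5-fold change.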

How the results depend on the processing

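Of 1350 alternative values of single genes, 1197 kept their direction and their side of the threshold, 75 lost a call, 26 gained one and 52, all of uncalled genes, changed sign. Sqle kept its calls in both lineages in every alternative except the test against 1.5-fold, with log2 values from 0.58 to 0.71 in endoderm and 0.56 to 0.72 in mesoderm. The scaling alternatives moved no median over all genes by more than 0.1. The count of all genes called was 1478 in endoderm, 2222 in mesoderm, 163 for the interaction, 1145 between wild type lineages and 216 between knockout lineages. The test against 1.5-fold gave 372, 504, 55, 404 and 26, and called 0 of the 8 genes in each of these. Without the low-count filter the interaction had 377 called genes and the knockout lineage comparison 483, with 2 of the 8 (Idi1 and Cyp51). Fitting only the 2 groups compared gave 2 of the 8 in endoderm, Sqle and Fdps (adjusted p = 0.0365). The number of genes tested in each alternative is not given, so counts of the 8 here and below have no background share.

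With the replicate block the interaction had 255 called genes, the knockout lineage comparison 377 and 2 of the 8 (Idi1 and Cyp51), and Scap in mesoderm was -0.055. Same-numbered libraries correlated in their deviations by 0.011 to 0.18, always positive but not above 0.1 in every pair of any comparison. The main fit has no block because the labels give 4 groups of 3, and the block was tried as an alternative. The main tests thus take no account of what same-numbered libraries may share. The percent of Rn45s fell from library 1 to library 3 in each group, as from 81.5% to 79.6% in wild type endoderm and 82.4% to 81.4% in knockout mesoderm. Whether same-numbered libraries share a batch was not tested. The block also called Acaca in endoderm and Fads2, Abcg1 and Abca1 in mesoderm. It changed no other call among the named genes of the genotype comparisons.

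Leaving out single libraries gave 836 to 1321 called genes in endoderm, 1472 to 2467 in mesoderm, 104 to 354 for the interaction, 741 to 1391 between wild type lineages (0 to 2 of the 8) and 59 to 237 between knockout lineages (0 to 2 of the 8). The log2 differences of uncalled genes that changed sign then ran, in endoderm, for Hmgcs1 from -0.064 to 0.0301, Idi1 from -0.076 to 0.058, Dhcr7 from -0.022 to 0.12, Hsd17b7 from -0.013 to 0.12, Erlin2 from -0.056 to 0.052, Srebf2 from -0.021 to 0.10 and Scap from -0.025 to 0.41; in mesoderm, for Idi1 from -0.058 to 0.081, Dhcr7 from -0.016 to 0.041, Srebf2 from -0.13 to 0.0029, Scap from -0.21 to 0.21 and Insig2 from -0.25 to 0.094. For the interaction they ran for Sqle from -0.084 to 0.0804, Idi1 from -0.099 to 0.057, Fdft1 from -0.16 to 0.016, Fdps from -0.062 to 0.26, Cyp51 from -0.20 to 0.041 and Dhcr7 from -0.033 to 0.11, and between wild type lineages for Hmgcs1 from -0.0056 to 0.093 and Insig1 from -0.18 to 0.089. Idi1 in mesoderm was 0.00064 with DESeq2, 0.00055 with RLE scaling, 0.0061 without the filter and 0.0039 with the 2 groups alone; Scap there was -0.024 with limma-voom; the Sqle interaction with Rn45s was 0.0045. The cause of these changes was not tested. Depth limits the shallowest library, wild type mesoderm library 2, to 55 to 487 counts per gene of the 8.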
